A study of Mus musculus with 12 samples.

Results

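Mouse embryonic stem (ES) cells of the line V6.5 that carried a short hairpin RNA against Tet1 were set against parental V6.5 cells without a knockdown, with 4 RNA-seq libraries in each group, 8 of the 12 libraries of the series. Every gene whose mean normalised read count over both groups was at least 10 in the authors' deposited table was compared, which gave 15074 of 36521 gene identifiers. The Tet1kd cells had been electroporated with the plasmid pSUPER-puro-Tet1shRNA and selected with puromycin on resistant feeder cells, and single clones had then been picked. The labels name no control hairpin, so the hairpin, the selection and the cloning cannot be told apart. The sources used here do not say how many clones the 4 replicates came from. Both groups were grown in a medium with fetal bovine serum and leukaemia inhibitory factor (LIF). The labels call the libraries biological replicates, and the p-values measure the spread between these libraries, which may be in part technical. The remaining group, Tet2kd, made the same way with a hairpin against Tet2 (4 libraries), is used where it is named.

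TET1 is a dioxygenase that oxidises methylated cytosine in DNA to its hydroxymethyl form, the first step of active demethylation, and its CXXC domain binds CpG-rich DNA. It is abundant in mouse ES cells and also works as a scaffold for repressor complexes at promoters. ES cells in serum and LIF are driven by LIF signals that hold the pluripotent state and by FGF4-ERK signals that push towards differentiation.

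The deposited tables hold group means, and the normalised read count of each library was recovered from them for 14648 of the 15074 genes. The libraries are lettered a to d from the deepest to the shallowest, because the means carry no replicate number, and values per library are given in that order. Estimated depth was 14721858 to 31291428 reads in the parental and 15879563 to 39709176 in the Tet1kd libraries, from the sum of the deposited means and each library's scaling. Tet1 itself had 29709, 28581, 25090 and 25562 normalised reads in the parental and 7427, 7540, 6257 and 6215 in the Tet1kd libraries. The groups did not overlap, and limma gave a log2 difference of -1.99 (SE 0.07, adjusted p = 3.3e-09). "Rose" and "fell" below mean an adjusted p under 0.05 in the authors' deposited table. All 10 ES cell markers examined were expressed in both groups, and 5 of them rose and none fell, also at an unadjusted p under 0.05 in that table. In the longer list of ES cell identity genes, 12 of 37 rose and 11 fell; limma called 4 higher and 11 lower of the 21 with library values, and 7 lower without parental library a or b.

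In the authors' deposited table, 3418 genes rose and 3332 fell, so 44.8% of all genes tested were called, 22.7% upwards and 22.1% downwards. Of the 6750 called genes, 2693 (39.9%) differed by less than 0.5 on the log2 scale, and 841 rose and 782 fell by 2-fold or more. The median log2 change of all genes was -0.0001. In the recovered libraries, 48.8% of 14648 genes had groups that did not overlap, among them 6094 of the 6553 called genes with library values. The authors' second set of p-values, named for a generalised linear model (GLM), called 57% of the genes, 4240 higher (28.1%) and 4346 lower (28.8%). Limma called 54% of the genes with library values, 3945 higher (26.9%) and 3961 lower (27%). The lowest mean that entered was that of Gcgr, the glucagon receptor (10.0), with a deposited log2 change of 1.50 (adjusted p = 0.11). The gene just outside, Tal2, a factor related to TAL1, had a mean of 9.97 and a deposited log2 change of 0.92 (adjusted p = 0.34). Below the limit 8046 genes with reads were left out, 287 of them with a deposited adjusted p under 0.05.

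The share of genes called differed between expression classes, and so did its direction. Of 1979 genes with a mean of 10 to 30 normalised reads, 212 rose and 260 fell. From 300 to 1000 reads 1083 of 3572 rose and 775 fell. From 3000 to 10000 reads the order was the other way round, with 290 of 1590 higher and 513 lower. Of the 295 genes with 10000 reads or more, 33 rose and 107 fell, with a median log2 change of -0.11. Classed by the Tet1kd mean alone, the highest class held 53 rises and 72 falls, and by the parental mean 22 and 146, so the excess of falls at the top became smaller or larger with the group used to class the genes. The GLM test called 66 higher and 162 lower in that class. Differences of 2-fold or more, called or not, made up 30.2% of the lowest class and 2.4% of the highest. The spread between libraries differed as well. The median standard deviation of the log2 counts among parental libraries was 0.48 in the lowest class and 0.07 in the highest. How much of the 2-fold differences came from that spread was not tested.

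**Figure D1:**
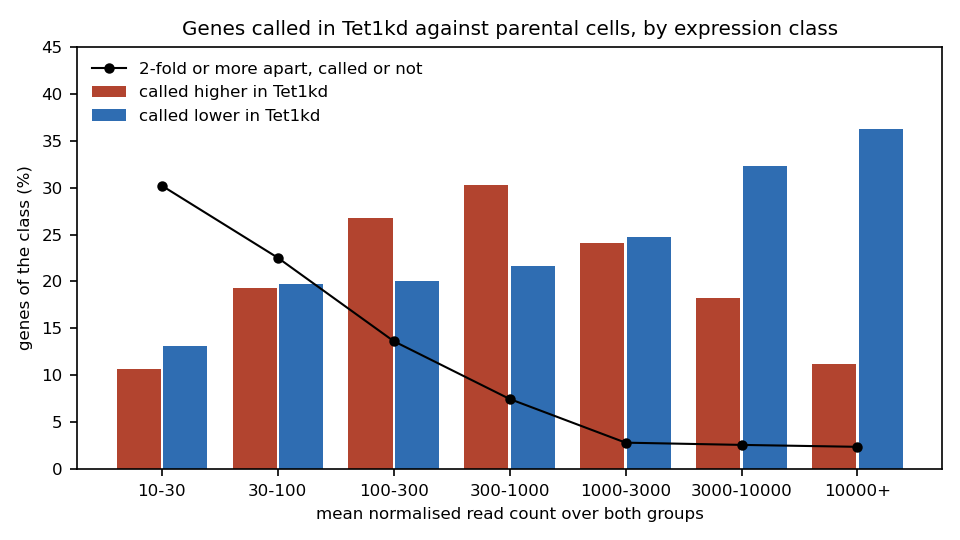
Share of genes (vertical axis, %) called higher (red) or lower (blue) in Tet1kd cells in 7 classes of mean normalised read count (horizontal axis), with the share that differed 2-fold or more whether called or not (black points). Rises outnumber falls from 100 to 1000 reads, and falls outnumber rises above 3000 reads.

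The genes with the largest changes came from different functions in each class. In the lowest class Hcn4, a pacemaker channel, had 2.18, 3.13, 1.42 and 4.63 normalised reads in the parental and 42.5, 49.1, 27.9 and 33.1 in the Tet1kd libraries. From 30 to 100 reads the largest rise was that of Fa2h, a fatty acid hydroxylase (deposited log2 change 4.20), and the largest fall that of Mmp12, a macrophage elastase (-5.04). From 100 to 300 reads Dcdc2a, a doublecortin-domain protein, led the rises with 11.5 against 255 normalised reads in the authors' deposited means. Grin1, a subunit of the NMDA receptor, was among the largest rises from 300 to 1000 reads, with 75.2 to 135 reads in the parental and 742 to 915 in the Tet1kd libraries. Tgm2, a transglutaminase, and Bcar3, an adaptor of integrin signalling, led the class from 1000 to 3000 reads with deposited log2 changes of 2.31 and 2.02. In that class Plaur, the urokinase receptor, fell from 1567, 1736, 1979 and 1953 to 158, 202, 182 and 226 reads. Flna, the actin crosslinker filamin A, was after Tet1 the second largest fall of the highest class, with deposited means of 21410 and 10354.

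RNA classes also differed in direction, by the biotype of a GENCODE annotation. The shares below stand beside 22.7% of all genes higher and 22.1% lower. Of 82 long intergenic noncoding RNAs 27 rose (32.9%) and 10 fell (12.2%), with a median log2 change of 0.30. Of 102 antisense genes 23 rose (22.5%, near the share of all genes) and 12 fell (11.8%). The sources used here do not say whether reads were assigned by strand, so antisense genes cannot be told from the genes they overlap. Processed pseudogenes, copies of mRNAs that can share reads with their parent genes, were called less, with 45 of 952 higher and 108 lower. Of 105 small nucleolar RNA genes 6 rose (5.7%) and 16 fell (15.2%), both below the shares of all genes. The libraries were made from RNA selected for poly(A).

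One stretch of chromosome 6 was lower almost throughout in Tet1kd cells. In gene order it ran from Cul1, the scaffold of SCF ubiquitin ligases, to Suclg2, a subunit of succinyl-CoA ligase, and held 246 tested genes, of which 179 fell and 5 rose. Their median log2 change was -0.89, which is 53.9% of the parental level. The limits of the block were set after the values were seen, so it is described and not tested. Cul1 had 4562, 4489, 4443 and 4530 normalised reads in the parental and 1879, 1805, 1816 and 1846 in the Tet1kd libraries. On the far side the next tested gene after Suclg2, Fam19a4, had a log2 change of -0.26 and was not called in the authors' deposited table, and the one after it, Eogt, rose by 0.31. Of 244 block genes with library values, 180 had all Tet1kd libraries below all parental ones, against 24.3% of all genes with library values. Medians were -0.87 in the deeper and -0.92 in the shallower libraries.

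The well expressed genes of the block fell almost without exception. Of its 120 genes with at least 300 reads, 108 fell and none rose, and their median was 52.7% of the parental level. None rose at an unadjusted p under 0.05 or by limma, and 1, Gng12, rose by the GLM p-values of the authors' deposited table. The 5 rises included Tet3, which encodes a second methylcytosine dioxygenase, with 206, 196, 221 and 202 reads in the parental and 376, 336, 357 and 393 in the Tet1kd libraries. Klf15, Vax2 and Prickle2, a Kruppel-like factor, a homeobox factor of the eye and a planar polarity protein, rose by deposited log2 changes of 1.42, 2.99 and 0.65. The 158 tested genes of chromosome 6 before the block had a median log2 change of -0.04 and the 278 after it 0.02. Over windows of 41 neighbouring genes the median reached -1.09 on chromosome 6 and no less than -0.48 on any other autosome. In Tet2kd cells the same 246 genes had a median deposited log2 change of 0.04, with 17 higher and 2 lower. In the direct limma comparison of the knockdowns, 181 of 236 block genes were lower in Tet1kd and 7 higher, where 24.5% of all genes were lower. Because the limits were drawn from the same Tet1kd values, this count describes the block and is no test of it. The block was not the only shift that followed a chromosome: 4 tested Y-linked genes had a median deposited log2 change of -4.69, and in Tet2kd cells of -4.54.

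**Figure D2:**
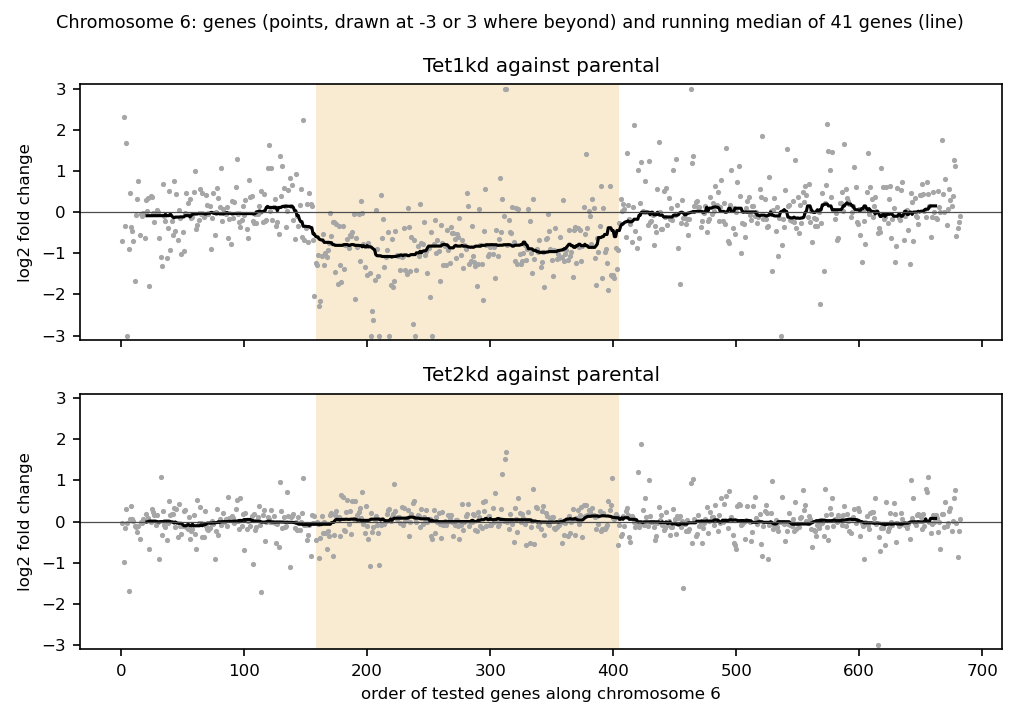
Log2 fold change (vertical axis) of the tested genes of chromosome 6 in chromosomal order (horizontal axis) in Tet1kd (top) and Tet2kd cells (bottom), both against the same parental libraries. The line is the running median of 41 genes and the shading marks the block from Cul1 to Suclg2, where the Tet1kd genes have a median of -0.89 and the Tet2kd genes of 0.04.

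Several regulators with large falls lay in that block. Ezh2, the methyltransferase of Polycomb repressive complex, had 7969, 8022, 8051 and 7585 normalised reads in the parental and 4038, 3756, 3940 and 3653 in the Tet1kd libraries. Kdm3a, a histone lysine demethylase, fell from 6811, 6753, 6395 and 6545 to 2046, 2175, 2116 and 1970 reads. Smarcad1, a remodelling ATPase, Mcm2, a subunit of the replicative helicase, Polr1a, the large subunit of RNA polymerase I, and Eif2ak3, the stress kinase PERK, also lay there. Their deposited log2 changes were -1.41, -1.23, -1.29 and -0.87. For some of the lists below with members in the block, counts without those members are given. Other lists below also have members there and are given with them only. Among these is the Zfp series with 8 block members, of which 89 of 321 genes fell outside the block.

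Immediate-early genes, which growth factor signals switch on within minutes through serum response factor (SRF) and ERK, split into 2 sets. Of 33 such factors 16 rose and 8 fell in the authors' deposited table, which is 72.7% called against 44.8% of all genes. Fos, Fosb and Egr1 were among the largest rises, with deposited means of 2072 and 22809, 1292 and 11385, and 4054 and 26369 in parental and Tet1kd cells. Egr2 had 108, 105, 146 and 131 reads in the parental and 979, 1025, 979 and 944 in the Tet1kd libraries, and the groups were far apart (limma log2 3.01, SE 0.11, adjusted p = 2.7e-09). Zfp36, which destabilises cytokine mRNAs, went from 1444, 1437, 1497 and 1461 to 2906, 3195, 2867 and 3157 reads. Junb and Ier2, 2 further early genes, rose by deposited log2 changes of 1.16 and 0.85.

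The Fos relative Fosl1 and Myc moved the other way. Fosl1 had 268, 255, 296 and 250 normalised reads in the parental and 46.3, 38.05, 29.1 and 20.7 in the Tet1kd libraries. Myc, the growth regulator downstream of LIF, ERK and Wnt signals, had 1517, 1519, 1482 and 1573 against 247, 285, 237 and 228 (limma log2 -2.61, SE 0.08, adjusted p = 1.0e-09). The number of immediate-early genes called lower was 13 by the GLM test and 15 by limma, so the 8 falls depend on the test.

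Genes that ERK switches on to limit itself were mostly lower. Of 20 feedback inhibitors 12 fell and 4 rose (median log2 -0.33). Dusp6, the phosphatase that removes the activating phosphates of ERK, had 3710, 3780, 3449 and 3398 reads in the parental and 1940, 1764, 1944 and 1709 in the Tet1kd libraries. Spry4, a Sprouty inhibitor of receptor signals, had 9413, 9622, 9871 and 9661 against 4487, 4717, 4454 and 4702. No library of either gene crossed into the other group. Dusp5, a nuclear ERK phosphatase, and Spry2 had log2 changes of -1.12 and -0.68 in the authors' deposited table. Dusp1, itself an immediate-early gene, rose by 1.53 and Spry1 by 0.78 in the same table. Over the whole family of dual-specificity phosphatases 10 of 17 fell and 3 rose. Among ETS factors, which carry ERK signals to promoters, 5 of 16 fell and 4 rose, shares near those of all genes (22.1% and 22.7%). Ets1 went from 224, 177, 183 and 204 to 43.0, 47.6, 68.4 and 40.01 reads and Etv4 fell by 1.01 in the authors' deposited table, whereas Elf4 rose by 1.14. Of 30 kinases and adaptors of the pathway itself 11 rose (36.7%) and 7 fell (23.3%, near the share of all genes). Their median log2 change was only 0.08, and without chromosome 6 there were 9 higher and 6 lower of 27. Sos2, a nucleotide exchange factor of RAS, led the rises (deposited log2 change 1.24).

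SRF binds the CArG box, a motif of 10 bases with CC and GG around 6 bases that are A or T, searched here on both strands, which read alike, in RefSeq promoter windows (GRCm38.p6, 250 bases before to 50 after the start). The box was found in 535 of 32851 windows (1.63%). Of 155 tested genes with a box 38 rose and 48 fell, or 55.5% called. Only 70.0% of the genes with an identifier of their own matched a window, so shares over all genes are not compared. The matched genes were classed by promoter CpG content, observed to expected (limits 0.35 and 0.65). In the low, middle and high class 47.4%, 48.8% and 47.0% were called. Of these classes 23.1%, 28.6% and 22.9% rose and 24.3%, 20.2% and 24.1% fell. The classes serve here as a background and are not compared with each other. Of the 33 immediate-early factors 25 matched a window, and 3 of these held a box. Of 16 ERK feedback inhibitors with a window 1 held a box. The windows below show the box in capitals in early genes that rose or did not pass the test, then in genes that fell, all from the strand of the gene.
Egr2 (chr10:67537787-67537816, + strand): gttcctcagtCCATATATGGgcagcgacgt
Zfp36 (chr7:28379267-28379296, - strand): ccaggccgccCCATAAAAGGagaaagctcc
Srf (chr17:46556215-46556244, - strand): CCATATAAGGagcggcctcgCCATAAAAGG
Dusp5 (chr19:53529058-53529087, + strand): aatacCCATATTTGGCCTTATATGGgcact
Acta1 (chr8:123894829-123894858, - strand): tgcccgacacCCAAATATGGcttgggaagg
Myl9 (chr2:156775293-156775322, + strand): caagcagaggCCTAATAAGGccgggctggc
Cnn2 (chr10:79988534-79988563, + strand): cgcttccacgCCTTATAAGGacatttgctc
Vcl (chr14:20929161-20929190, + strand): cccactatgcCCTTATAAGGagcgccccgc
The box of Egr2 and Zfp36, which rose, starts 72 and 58 bases before the start site. Srf, with 2 boxes, did not pass the test (deposited log2 change -0.22, adjusted p = 0.084), although limma gave an adjusted p of 0.032. The boxes of Dusp5, Acta1, Myl9, Cnn2 and Vcl, which fell, start between 227 and 56 bases before it. The match describes the letters of these windows and was not tested as a site.

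The second group of known SRF genes, those of the actin cytoskeleton, fell far more often than they rose. Of 39 actin and SRF target genes 22 fell and 5 rose (median log2 -0.38; without the block 22 of 38 fell). Of the 34 with a promoter window 8 held a CArG box; 5 of these fell and none rose, at an unadjusted p under 0.05 and by limma likewise none. Acta1, skeletal alpha-actin, had 115, 128, 118 and 131 normalised reads in the parental and 32.0, 24.6, 25.3 and 26.2 in the Tet1kd libraries. Acta2, smooth muscle actin, had 873, 898, 969 and 1051 against 231, 321, 277 and 324. Myl9, a myosin light chain, had 320, 313, 409 and 321 against 92.1, 97.5, 118 and 112 (limma log2 -1.69, SE 0.12, adjusted p = 5.0e-07). In all 3 genes every Tet1kd library lay below every parental one. The broadly expressed members changed less: Vcl, vinculin, Cnn2, a calponin, and Actb, the main cytoplasmic actin, had log2 changes of -0.75, -0.89 and -0.51 in the authors' deposited table.

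**Figure D3:**
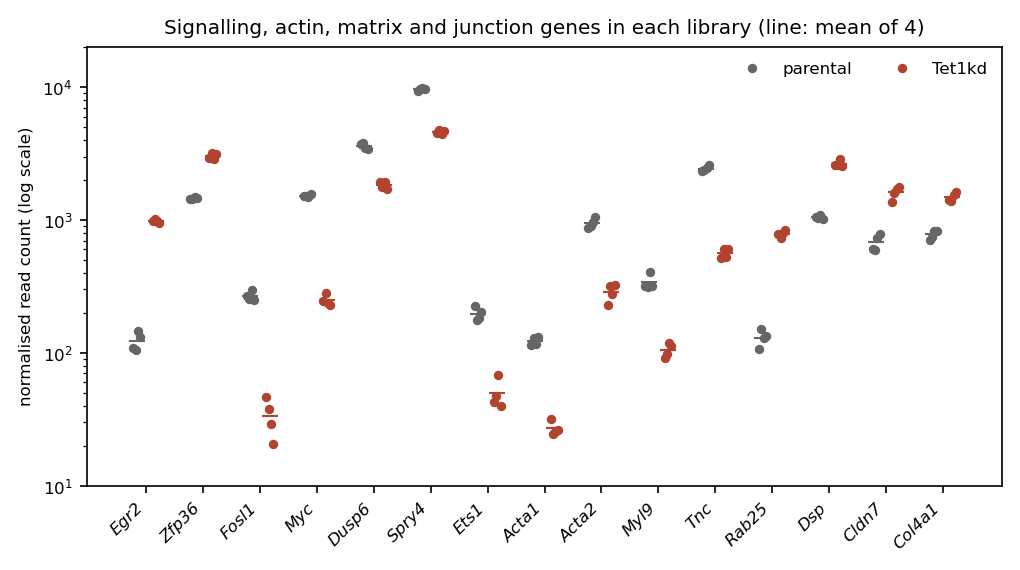
Normalised read counts (vertical axis, log scale) of 15 genes of signalling, the actin cytoskeleton, the matrix and junctions in the 4 parental (grey) and 4 Tet1kd (red) libraries, each point a library and each line a group mean. The points of the groups do not overlap in any of these genes, and Rab25, with 108 to 151 reads against 730 to 833, is among the largest rises.

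Genes of cell junctions leaned upwards. Of 47 cadherin, desmosome and tight junction genes 26 rose and 6 fell (median log2 0.51; 11 lower by the GLM test). Rab25, a GTPase of apical recycling in epithelia, had 108, 151, 129 and 134 reads in the parental and 791, 730, 793 and 833 in the Tet1kd libraries. Dsp, the desmosome plaque protein desmoplakin, had 1047, 1030, 1095 and 1017 against 2605, 2576, 2853 and 2544. Cldn7, a tight junction claudin, had 604, 591, 727 and 787 against 1368, 1586, 1722 and 1781. Prom2, a protein of membrane protrusions, had the largest rise of the list, from 17.4, 16.4, 9.92 and 32.4 to 169, 227, 203 and 286 reads. Cdh1, E-cadherin, was not called, with deposited means of 17310 and 15881 (adjusted p = 0.27; 0.00047 in the GLM column). Cdh2, N-cadherin, fell by 0.98 in the authors' deposited table, and 1 Tet1kd library with 99.3 reads lay just below the lowest parental library with 100.4. The epithelial splicing factor Esrp1 rose from 1577, 1585, 1554 and 1562 to 3048, 3168, 3069 and 3016 reads. Of 16 tetraspanins, membrane organisers, 9 rose and 1 fell, Tspan15 most (deposited log2 change 1.19).

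Intermediate filaments, integrins and the interstitial matrix leaned downwards. Of 22 keratins and other filament genes 13 fell and 6 rose (median log2 -0.58). Krt18, a keratin of simple epithelia, had 758, 744, 809 and 882 reads in the parental and 255, 303, 296 and 344 in the Tet1kd libraries, and its partner Krt8 fell by 1.25 in the authors' deposited table. Nes, the filament nestin of progenitor cells, fell by 2.03, while Krt7 rose by 1.53 in that table. Of 29 integrins and their partners 12 fell and 5 rose. Of 50 genes of interstitial collagens, proteoglycans and matrix enzymes 23 fell and 7 rose (median log2 -0.31). Tnc, the matrix protein tenascin C, had 2322, 2360, 2466 and 2581 reads in the parental and 514, 605, 527 and 604 in the Tet1kd libraries. Every Tet1kd library lay far below every parental one. Of 23 basement membrane genes 8 rose and 3 fell, but the GLM test called 9 higher and 6 lower, and limma 5 higher and 4 lower of 17. Col4a1, a type IV collagen chain, went from 712, 750, 833 and 831 to 1412, 1397, 1545 and 1610 reads. Lama1, the laminin of early basement membranes, rose by 0.90 in the authors' deposited table.

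Fibroblast markers moved with these groups. Of 10 tested markers of feeder fibroblasts 6 fell and 1 rose (median log2 -0.93). The summed level of all 12 markers was 4749 to 5308 in the parental and 3935 to 4873 in the Tet1kd libraries, and none of the 12 was at 0 in either group. Their part in the falls of the actin, filament and matrix genes was not tested. The markers of blood cells summed to 1261 to 1369 and 1142 to 1257, with 2 of 8 at 0 in Tet1kd. A fall was not particular to fibroblast markers. The 8 of 9 neuron markers with library values summed to 1765 to 1927 in the parental and 1251 to 1343 in the Tet1kd libraries. Of the 7 neuron markers tested 3 fell and 1 rose. In bulk libraries, fewer cells of a type and less RNA per cell cannot be told apart.

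**Figure D4:**
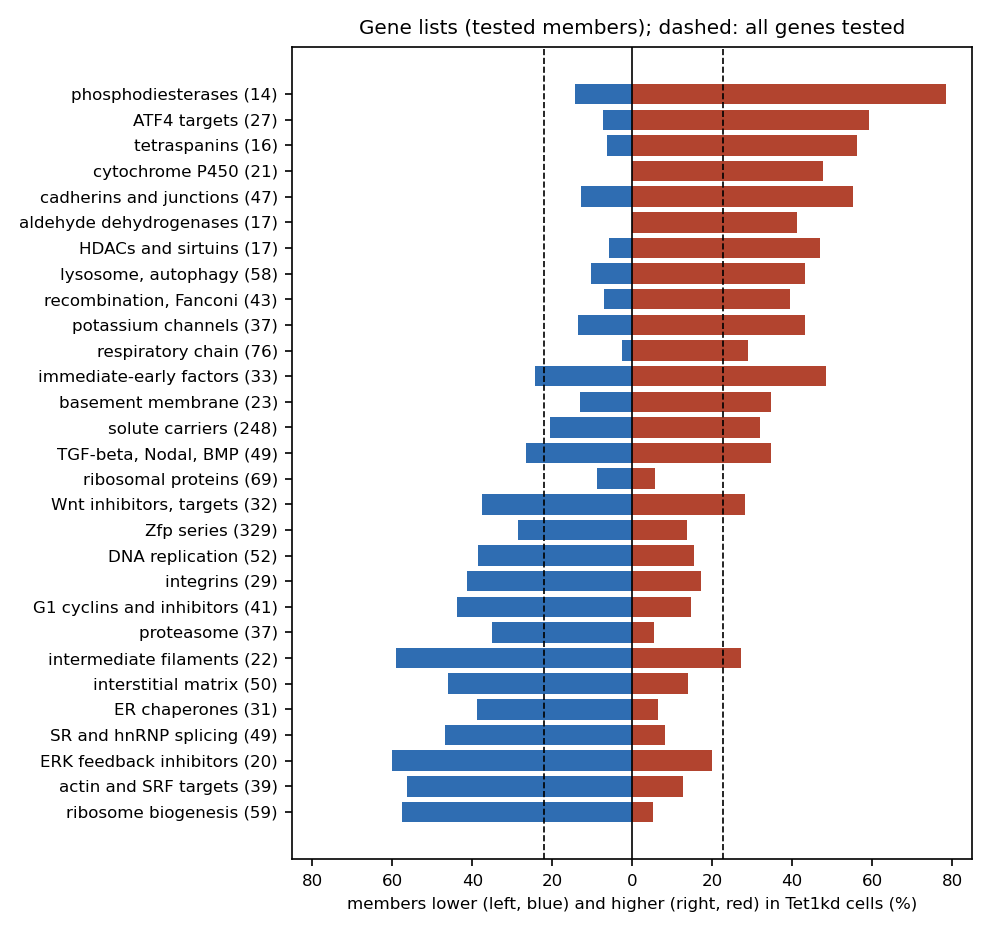
Percentage of the tested members of 29 gene lists (number of members in brackets) that fell (left, blue) or rose (right, red) in the authors' deposited table. Dashed lines mark all genes tested (22.1% lower, 22.7% higher); ribosome biogenesis, actin and ERK feedback genes lie at the bottom, and phosphodiesterases, ATF4 targets and junction genes near the top.

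Genes that build ribosomes fell widely but by little, and the ribosomal proteins did not follow. Of 59 genes of ribosome biogenesis and the nucleolus 34 fell and 3 rose, with a median log2 change of -0.30; limma called 37 of 54 lower and the GLM test 48 of 59. Utp20, a component of the small-subunit processome, had 7297, 7238, 7818 and 7491 normalised reads in the parental and 4125, 3952, 4346 and 4187 in the Tet1kd libraries. Heatr1, of the same particle, had 8611, 8581, 8616 and 8529 against 5419, 5141, 5377 and 5462. Ncl, nucleolin, fell by 0.50 in the authors' deposited table. Removing the block member Polr1a left 33 of 58 lower. Of 69 ribosomal protein genes 4 rose and 6 fell, with a median of 0.00, and the GLM test called 14 higher and 8 lower. These genes have many pseudogene copies, so their counts are less certain. Of 46 translation factors 12 fell and 5 rose (23 and 8 by the GLM test).

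Splicing and proteasome genes showed the same kind of shallow shift. Of 49 splicing factors of the SR and hnRNP families 23 fell and 4 rose (median log2 -0.21; 20 of 46 fell without the block, where Tra2a and Hnrnpa2b1 lie). Of 37 proteasome subunits 13 fell and 2 rose (median log2 -0.20), and the GLM test called 22 lower. Of 31 genes of endoplasmic reticulum chaperones and the unfolded protein response 12 fell and 2 rose (11 of 30 fell without the block). Manf, a secreted stress protein, had 3123, 3050, 3162 and 3168 reads in the parental and 1986, 1694, 1964 and 1858 in the Tet1kd libraries, and Hspa5, the chaperone BiP, fell by 0.60 in the authors' deposited table.

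Cell cycle genes were read by phase. Of 41 genes of G1 control 18 fell and 6 rose (median log2 -0.26). Ccne1, the cyclin that drives entry into S phase, had 9312, 9528, 9590 and 9769 reads in the parental and 4528, 4317, 5055 and 4569 in the Tet1kd libraries. Ccnd1 and Ccnd3, the D cyclins, had log2 changes of -0.40 and -0.33 and Cdkn2a, which encodes a CDK inhibitor, of -1.67 in the authors' deposited table. Of 52 replication genes 20 fell and 8 rose (18 of 50 without the block), and Cdc6, a licensing factor of origins, fell by 0.74 in that table. Of 56 spindle and kinetochore genes 12 rose and 5 fell, so 21.4% rose and 8.9% fell beside 22.7% and 22.1% of all genes. The falls there depended on the test, with 14 by the GLM test and 12 by limma, and limma called 6 when Tet1kd library d was left out. Homologous recombination and Fanconi genes leaned upwards, with 17 of 43 higher and 3 lower (8 lower by the GLM test). Brca2, a mediator of strand exchange, went from 3085, 2997, 2705 and 2802 to 5543, 4936, 5254 and 4793 reads. Fancm, a translocase that recognises stalled forks, went the other way, from 3854, 3786, 3646 and 3607 to 1943, 1932, 1736 and 1762 reads.

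**Figure D5:**
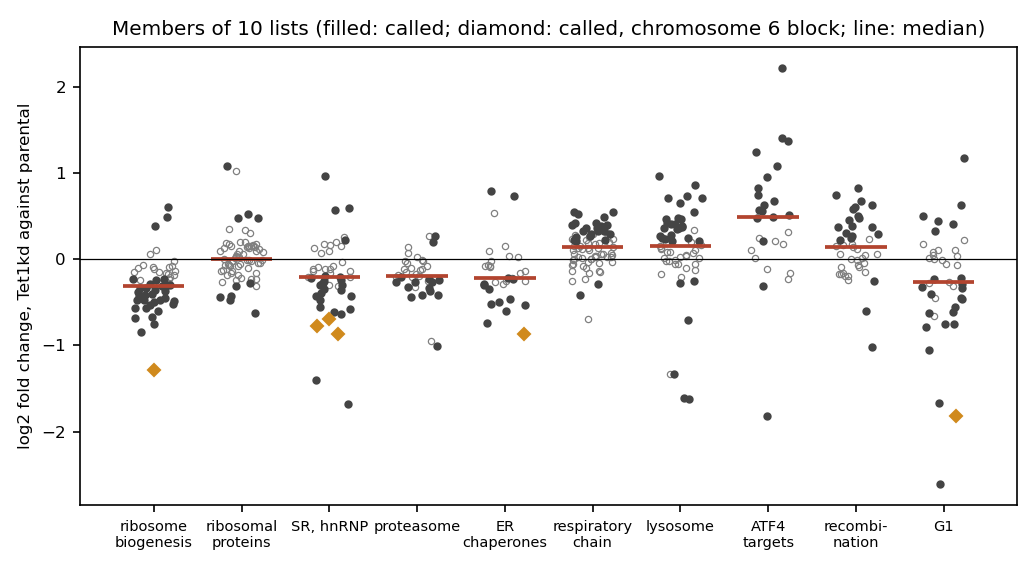
Log2 fold change (vertical axis) of each tested member of 10 lists (horizontal axis) in the authors' deposited table, with filled points for called members, diamonds for called members in the chromosome 6 block and a line at the median. Ribosome biogenesis genes centre at -0.30 and ATF4 targets at 0.49, while ribosomal proteins centre at 0.00.

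Amino acid genes under the stress factor ATF4 leaned upwards. Of 27 transporters, synthesis enzymes and other ATF4 targets 16 rose and 2 fell (median log2 0.49; 4 lower by the GLM test). Chac1, which degrades glutathione, had 293, 311, 299 and 317 reads in the parental and 1430, 1477, 1400 and 1388 in the Tet1kd libraries (limma log2 2.22, SE 0.06, adjusted p = 1.0e-09). Slc6a9, a glycine transporter, had 102, 106, 135 and 151 against 318, 346, 279 and 366. The list was not uniform: Asns, asparagine synthetase, had deposited means of 26382 and 26702 (adjusted p = 1.0), and Slc7a11, the cystine transporter, fell by 1.82 in the authors' deposited table. Ddit3, the proapoptotic factor CHOP, was not called, with a deposited log2 change of -0.22.

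Respiratory chain and lysosomal genes also leaned upwards. Of 76 subunits of the respiratory chain 22 rose (28.9%) and 2 fell (2.6%), beside 22.7% and 22.1% of all genes. Their median log2 change was only 0.14, and the GLM test called 35 higher. Mitochondrially encoded genes, counted as a separate list, did not rise. Of 11 tested, none rose and 5 fell (median log2 -0.53), and the GLM test called 7 lower. Cox8a, a subunit of cytochrome oxidase, had 3195, 3141, 2581 and 2537 normalised reads in the parental and 4323, 4982, 3525 and 3954 in the Tet1kd libraries. In both groups the deeper libraries were the higher ones, and within each pair the Tet1kd values stayed above the parental. Of 58 genes of lysosomes and autophagy 25 rose and 6 fell. Ctsa, a lysosomal carboxypeptidase, had 2428, 2422, 2275 and 2449 against 4394, 4894, 4502 and 4923 reads. The autophagy receptor Calcoco2 and the autophagosome protein Gabarapl2 fell by 1.62 and 1.33 in the authors' deposited table.

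Redox and detoxification genes did not move as one. Of 42 genes of glutathione metabolism and the NRF2 response 16 fell and 9 rose. Among members with a mean of at least 50 reads, the metallothioneins Mt1 and Mt2, which bind zinc and copper, fell most; below that mean, Sod3 and Slc7a11 fell further. Mt2 had 10860, 10912, 11077 and 11422 reads in the parental and 4832, 4849, 4936 and 4876 in the Tet1kd libraries. Of 21 cytochrome P450 genes with enough reads 10 rose and none fell, by limma 11 and none, and none was lower at an unadjusted p under 0.05; 67 further family members were below the limit of 10 reads. Cyp2b23 had 77.7, 60.3, 56.7 and 67.9 reads against 281, 283, 261 and 224. Of 17 aldehyde dehydrogenases 7 rose and none fell (none lower at an unadjusted p under 0.05), by limma 7 and none, but 3 were lower by limma without parental library a and 1 without Tet1kd library b; Aldh5a1, of GABA breakdown, rose most of members averaging 50 reads or more, from 352, 388, 378 and 383 to 840, 893, 844 and 833 reads.

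Some families of membrane and second messenger genes leaned upwards, where 22.7% of all genes rose. Of 14 phosphodiesterases, which degrade cyclic AMP and cyclic GMP, 11 rose and 2 fell (median log2 0.75). Pde9a had 293, 292, 331 and 318 reads in the parental and 792, 864, 817 and 818 in the Tet1kd libraries. Of 37 potassium channel genes 16 rose and 5 fell (8 by limma). Kcnj3, an inward rectifier opened by G proteins, had 35.6, 54.0, 63.7 and 27.8 against 204, 235, 163 and 195 reads. Of 248 solute carriers 79 rose (31.9%) and 51 fell. Other membrane families did not lean upwards: of 26 orphan and adhesion G protein-coupled receptors 2 rose and 2 fell, and of 8 protocadherins 1 rose and 3 fell. The members of these families that were below 10 reads, 9 phosphodiesterases and 56 potassium channels among them, were not tested.

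Transcription factors of differentiation were mostly low. Of 27 Hox genes with an identifier 20 were below the limit; of the 7 tested 4 fell and none rose (by limma 5 and none, and none higher at an unadjusted p under 0.05), 2 of the falls in the chromosome 6 block. Of 15 Pax, Gata and T-box factors 6 fell and 5 rose (2 rose when only members averaging 50 reads or more were kept). T, the mesoderm factor brachyury, had 124, 131, 159 and 136 reads in the parental and 8.83, 14.3, 7.60 and 13.8 in the Tet1kd libraries, and Gata6, of primitive endoderm, had 118, 136, 130 and 102 against 40.8, 29.3, 35.5 and 33.1. Otx2, a homeobox factor of the formative state, rose from 251, 250, 207 and 238 to 712, 667, 677 and 659 reads. Of 27 nuclear receptors 10 fell and 7 rose; Nr1d1, the clock repressor REV-ERB alpha, went from 645, 716, 809 and 761 to 191, 157, 228 and 155 reads. Of 329 zinc finger genes of the Zfp series 94 fell and 45 rose, so 13.7% rose beside 22.7% of all genes.

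Chromatin enzymes were counted by class. Of 17 histone deacetylases and sirtuins 8 rose and 1 fell (median log2 0.31; 3 lower by the GLM test). Sirt3, the mitochondrial sirtuin, had 273, 352, 395 and 344 reads in the parental and 707, 900, 807 and 978 in the Tet1kd libraries, and Hdac7, a class IIa deacetylase, had 219, 207, 269 and 242 against 452, 495, 519 and 515. Of 40 lysine methyltransferases 14 fell and 7 rose, but without the block 10 of 36 fell. Prdm1, a repressor that specifies germ cells, rose by 1.28 in the authors' deposited table. Of 51 subunits of remodelling complexes 17 fell and 8 rose (26 and 12 by the GLM test), Atrx, an X-linked remodeller of heterochromatin, falling by 1.03 in that table.

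Signalling by Wnt, TGF-beta and Notch ligands showed rises and falls in the same pathway. Of 32 Wnt inhibitors and target genes 12 fell and 9 rose (7 fell when only members averaging 50 reads or more were kept). Axin2, a feedback target of beta-catenin, had 901, 846, 1000 and 1027 reads in the parental and 349, 375, 407 and 363 in the Tet1kd libraries. Sfrp1, a secreted Wnt inhibitor, had 3178, 3376, 3237 and 3110 against 8424, 8349, 8480 and 8361. Lef1, a nuclear partner of beta-catenin, rose by 1.39 in the authors' deposited table. Of 49 genes of TGF-beta, Nodal and BMP signalling 17 rose and 13 fell. Id1, a target of BMP signals, had 763, 843, 983 and 951 reads against 168, 185, 158 and 192, whereas Smad3, a transducer of activin and Nodal, had 508, 551, 494 and 522 against 1233, 1179, 1197 and 1109. Inhba, which encodes the subunit of activin A, and Tgfb2 had log2 changes of -2.75 and -2.09 in the authors' deposited table. In the Notch pathway 7 of 30 rose and 9 fell, shares near the 22.7% and 22.1% of all genes. The receptor Notch3 went from 2048, 2183, 2347 and 2443 to 4895, 4979, 5493 and 5553 reads, and the ligand Jag1 from 1541, 1678, 1718 and 1541 to 874, 934, 862 and 933.

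Tet2kd cells share the parental libraries with this comparison, so the knockdowns were tested against each other. The authors' deposited table for Tet2kd called 852 of the same 15074 genes higher (5.65%) and 746 lower (4.95%), 10.6% in all. Between Tet1kd and Tet2kd, limma called 3776 of 14487 genes higher (26.1%) and 3550 lower (24.5%) in Tet1kd, 50.6% in all. Some genes of the groups above had deposited changes of opposite sign. Acta2 rose by 0.64 in Tet2kd in the authors' deposited table, and the direct limma difference was -2.37 (adjusted p = 9.4e-11). For Myl9 the direct difference was -2.25 (adjusted p = 1.5e-09) and for Dusp6 -1.24 (adjusted p = 1.6e-10). Other genes moved the same way in both knockdowns. In Tet2kd Fos, Fosb and Egr1 rose by deposited log2 changes of 0.81, 0.69 and 0.71. Id1, Plaur and Spry4 fell there, with deposited log2 changes of -1.32, -1.06 and -0.52. Of the 33 immediate-early factors 7 rose and 3 fell in Tet2kd, and of the 20 ERK feedback inhibitors 3 rose and 4 fell. Of 29 actin and SRF target genes in the direct test 20 were lower and 5 higher in Tet1kd, and of 41 junction genes 23 were higher and 7 lower. For Otx2 and Gata6 the direct difference did not pass, at 0.19 (adjusted p = 0.062) and -0.22 (adjusted p = 0.43), and in Tet2kd their deposited log2 changes were 1.33 and -1.54. Of 48 ribosome biogenesis genes in that test 18 were lower in Tet1kd and 3 higher.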

How the data were processed

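Poly(A) RNA was selected in 2 rounds and sequenced on SOLiD, per the labels' protocols. TopHat2 2.0.0, SAMtools 0.1.18 and DESeq are named in the submitters' processing notes, with the builds mm9 and NCBIM37, and settings are not stated there. Per the file headers, the deposited table holds group means of normalised read counts (a signal), their linear fold change (a ratio), its log2, and p-values with adjusted p-values from 2 tests. Counts per library were not used from any other file: they were recovered here as whole reads whose scaled means equal the deposited means, and Tet1kd means above 10000 were left out. Recovery and the limma fit were tested on simulated data. The deposited adjusted p at 0.05 made the calls; limma 3.58.1 (R 4.3.3) on log2(recovered count + 0.5), with Benjamini-Hochberg adjustment over all genes, was the alternative and the test between the knockdowns. In both groups the 2 deeper libraries deviated together (r from 0.46 to 0.60 between groups; -0.56 to -0.47 between deeper and shallower). Values were read within each depth only for the chromosome 6 block and Cox8a. Chromosome order and biotypes come from GENCODE M21 (GRCm38), a later build than the authors', so no gene coordinates are printed. The members and gene lists were chosen with earlier results of these data known. For each list, up to 3 called rises and 3 called falls with a mean of at least 50 could be named, besides members named for their role, and the 2 largest rises and falls of each expression class. Beyond these, Fam19a4, Eogt, Sod3, Gng12 and the rises within the chromosome 6 block were named after their values were seen.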

Additional observations from a re-analysis of the deposited data

Results flagged for a closer look

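Among 210 groups of 4 libraries of the genes named above, 5 held a library far from the other 3 relative to the range of its group, where chance gives about 1 in 20. In parental cells, Myl9 had 1 library at 409.4 normalised reads where the next had 321.1, and Mt1 one at 10948 where the next had 10651. The lowest parental library of Ctsa had 2275 reads and the next 2422. In Tet1kd cells, the highest library of Cdkn2a had 84.16 reads and the next 52.41, and the highest of Inhba 24.83 and the next 16.65. In each of the 5 genes the groups still did not overlap.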

How the results depend on the processing

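The counts of genes higher and lower stayed within 1.5 times of 3418 and 3332 under the GLM p-values, limma, a pseudocount of 1, a batch term for library depth, an adjusted p of 0.01, no limit or a limit of 50 on the mean, centring on the median and without chromosome 6 or its block (the block, and fits within a depth, were chosen after seeing the data). Leaving out 1 library at a time gave 3665 to 3811 higher and 3618 to 3776 lower by limma. At 2-fold or more 841 were higher and 782 lower. Classed by the Tet1kd mean, rises from 10 to 30 reads numbered 121 and at 10000 or more 53; classed by the parental mean, falls from 10 to 30 reads numbered 154. With the GLM p-values 458 genes from 3000 to 10000 reads were higher, and at 10000 or more 66 higher and 162 lower. With a limit of 50 reads 3 mitochondrially encoded genes were lower in place of 5. Among 1344 list counts under another setting 124 moved by over 1.5 times. No named gene changed sign. Comparisons by promoter CpG class were void, because 70.0% of the genes matched a promoter sequence. edgeR and DESeq2 were not run on the recovered reads. No paired analysis was possible because the deposited columns carry no replicate numbers.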
